A study of Mus musculus with 36 samples.

Results

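Genes of sterol and fatty acid synthesis were followed in mouse kidney after cadmium chloride, in obese ob/ob mice and in C57BL/6 mice. The 30 genes were chosen as targets or regulators of the SREBP pathway and matched by symbol and Ensembl identifier among the 55536 genes counted. They fall into 18 enzymes of sterol synthesis, 6 regulators and carriers, and 6 enzymes of fatty acid synthesis. All 30 passed the filter on low counts, and 18180 genes were tested in all.

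The study sequenced kidney mRNA of 36 libraries in 6 groups of 6. The groups were ob mice left untreated or given CdCl2 at 0.5 or 2 mg/kg, and b6j mice at the same 3 doses, with the untreated mice called controls at 0 mg/kg. The ob groups carry the ob/ob mutation of Lep, the gene for the satiety hormone leptin, and become obese, whereas the b6j groups are C57BL/6 mice without it. The labels name the strain as C57BL/6 for both, and give neither route, duration, age nor sex. They do not say that each library came from a separate animal, so p-values measure the spread between these samples. In bulk kidney RNA fewer cells of a type and less RNA per cell cannot be told apart.

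SREBPs are transcription factors held in the membrane of the endoplasmic reticulum. When sterols are scarce Scap carries them to the Golgi, where they are cut free and travel to the nucleus, and when sterols are plentiful Insig proteins hold Scap back. SREBP-2, encoded by Srebf2, mainly drives cholesterol synthesis from acetyl-CoA through mevalonate, squalene and lanosterol, and SREBP-1c, a product of Srebf1, mainly drives fatty acid synthesis. The proximal tubule, which is most of the kidney cortex, burns fatty acids as its main fuel and is the main site where cadmium collects.

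Libraries held 26783936 to 37244058 counted reads. Levels are given as CPM, the counts of a gene scaled to a library of common size, 3 counts being worth 0.0851 to 0.112 CPM. Lep does not check the genotype labels here, since the mutation leaves the transcript in place and fat attached to a kidney also holds it. It lay between 0.0591 and 7.93 CPM in ob controls and between 0 and 0.188 CPM in b6j controls. One library stood apart from its group, replicate 5 of ob at 2 mg/kg. In it 10 proximal tubule markers summed to 2091 CPM, against 13290 to 20980 CPM in the other 5 libraries of that group, and 5 markers of injured tubule summed to 2477 CPM, against 114.3 to 347.3 CPM. The count of members called in each comparison is therefore given with and without it. Replicate 4 of the b6j controls had a high injury sum, at 197.4 CPM, while the lowest of its group was 13.93 CPM. Most of that sum was 1 gene, Havcr1, at 181 CPM, and another injury marker, Lcn2, was at 5.16 CPM. In replicate 5 of ob at 2 mg/kg these genes were at 530 and 1560 CPM. Replicate 3 of b6j at 2 mg/kg held adrenal cortex transcripts at 102.4 CPM in sum, and no other library passed 6.792 CPM.

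Before cadmium, sterol synthesis transcripts were lower in ob kidneys than in b6j kidneys. Of the 18 sterol enzymes 8 were called lower and 0 higher in ob controls, and all 18 log2 differences were below 0, with a median of -0.39 beside 0.03 over all genes tested. A gene was called at an adjusted p under 0.05 (edgeR quasi-likelihood test with Benjamini-Hochberg adjustment over the 18180 genes). Of the 6 regulators and carriers 3 were called lower, and of the 6 fatty acid enzymes 1 was called higher and 0 lower. Over all genes 8.93% were called lower and 6.6% higher in ob controls, against 11 and 1 of the 30 members. Without replicate 5 of ob at 2 mg/kg, which enters through the shared spread, 15 members (12 of them sterol enzymes) were called lower and 1 higher, with 26.0% of all genes called. With library size alone as the scaling, all genes had a median of 0.16 and the sterol enzymes one of -0.26, still with all 18 below 0. Proximal tubule markers summed to 24560 to 33780 CPM in ob controls and 42110 to 54190 CPM in b6j controls, and without Kap, a single abundant gene that androgens drive, to 15680 to 18300 and 19180 to 21120 CPM. The part of this difference in the results was not tested.

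**Figure D1:**
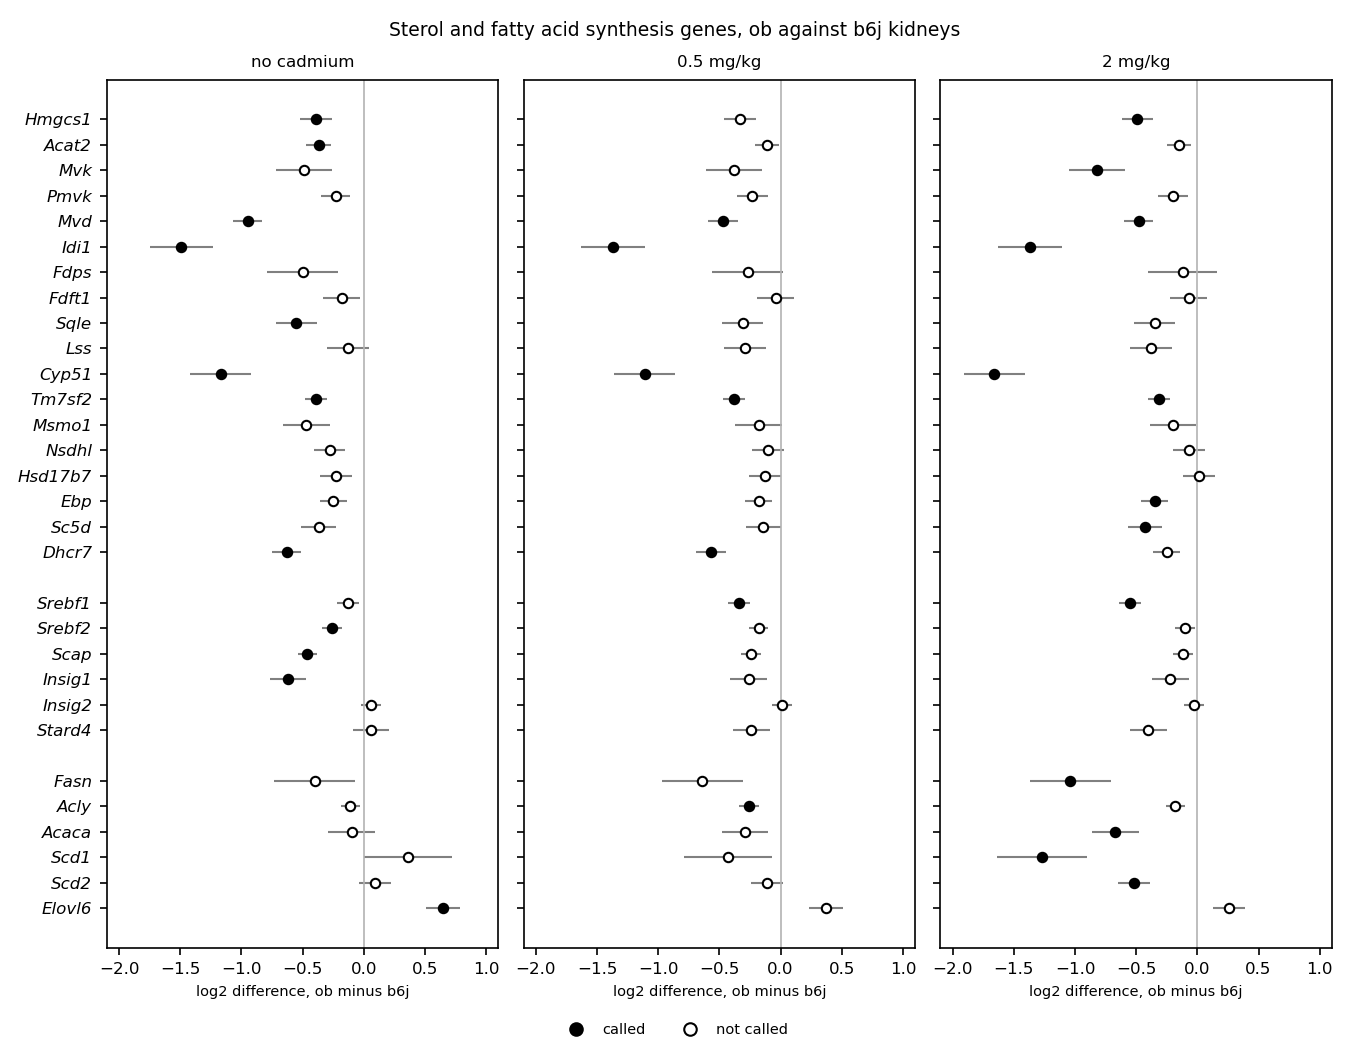
The log2 difference of each member between ob and b6j kidneys (horizontal axis, bars are SE) at each dose of CdCl2, with sterol enzymes in pathway order, regulators and carriers, and fatty acid enzymes from top to bottom. Filled points were called. Idi1 and Cyp51 lie farthest to the left among sterol enzymes at every dose. The fatty acid enzymes spread to both sides of 0 before cadmium, and 5 of 6 lie left of 0 at 0.5 and at 2 mg/kg.

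The steepest differences were at Idi1 (chr13:8885501-8892451) and Cyp51 (chr5:4081145-4104746), in GRCm38 coordinates of the whole gene. Idi1, the isomerase that makes the reactive isoprenoid building block after mevalonate, had 8.67, 11.4 and 13.9 CPM as lowest, median and highest of 6 in ob controls and 18.2, 32.4 and 42.8 CPM in b6j controls. All 6 ob libraries lay below every b6j library. The log2 difference was -1.49 ± 0.26 (SE, adjusted p = 9.12e-05), a level 2.8-fold lower in ob. Cyp51, the cytochrome that removes the 14-alpha methyl group of lanosterol, had 75.5, 104 and 146 CPM in ob controls and 170, 239 and 275 CPM in b6j controls. Again the groups did not overlap, and Cyp51 was 2.25-fold lower in ob (log2 difference -1.17 ± 0.25, adjusted p = 0.000773). A gap of this kind was present at each dose. At 0.5 mg/kg the log2 difference of Idi1 was -1.37 ± 0.26 (adjusted p = 0.000494) and that of Cyp51 was -1.11 ± 0.25 (adjusted p = 0.00229). In kidneys at 2 mg/kg it was -1.37 ± 0.26 for Idi1 (adjusted p = 0.000391) and -1.66 ± 0.25 for Cyp51 (adjusted p = 1.36e-05). Each of these comparisons had all 6 ob libraries below all 6 b6j libraries. Reads of Idi1 and Cyp51 cannot be told from those of genes on the opposite strand over 9.22% and 3.76% of their exon bases, since counting ignored strand.

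Mvd, which decarboxylates mevalonate pyrophosphate, had 45.5, 51.2 and 61.4 CPM in ob controls and 97.5, 99.3 and 103 CPM in b6j controls. The b6j controls lay within a narrow band, far above every ob control. The log2 difference was -0.95 ± 0.12 (adjusted p = 3.13e-07), the smallest adjusted p among the members in this comparison. Dhcr7, the reductase of the last step to cholesterol, had 11.2, 13.2 and 13.8 CPM in ob controls and 16.7, 18.9 and 25 CPM in b6j controls. The groups did not overlap (log2 difference -0.63 ± 0.12, adjusted p = 0.000153). Tm7sf2, a sterol C14 reductase that acts just after Cyp51, had 11.6, 15.4 and 17.8 CPM in ob controls and 17.8, 20 and 20.4 CPM in b6j controls. The highest ob library and the lowest b6j library nearly met (log2 difference -0.39 ± 0.09, adjusted p = 0.00281). Part of this gene, 12.1% of its exon bases, is shared with Vps51 on the same strand.

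Acat2, the thiolase that joins acetyl-CoA units at the start of the path, had 54.6, 61.1 and 76.7 CPM in ob controls and 70.6, 84.6 and 87.5 CPM in b6j controls. The ranges overlapped at their edge (log2 difference -0.37 ± 0.1, adjusted p = 0.0101), and with library size alone the call was lost (-0.24, adjusted p = 0.0639). Hmgcs1, which makes HMG-CoA, was the most abundant member per kilobase of exon, at 83.1 CPM per kb over 36 libraries. Over 12.1% of its exon bases lies Gm48342 on the opposite strand. It had 326, 387 and 491 CPM in ob controls and 463, 508 and 573 CPM in b6j controls. All but a single ob library lay below the b6j range (log2 difference -0.39 ± 0.13, adjusted p = 0.0376). That call was lost without any 1 of replicates 1, 2, 4 and 6 of ob controls or replicates 1, 3, 4 and 5 of b6j controls (log2 -0.39 to -0.35, adjusted p 0.0508 to 0.0885) and with library size alone (-0.25, adjusted p = 0.156). Sqle, the epoxidase that opens the sterol branch at squalene, had 53.8, 64.2 and 75.9 CPM in ob controls and 68.3, 81.7 and 159 CPM in b6j controls. Most but not all ob libraries lay below the b6j range, and the difference was -0.55 ± 0.17 (adjusted p = 0.0236). Its call rested on a few libraries. It was -0.33 (adjusted p = 0.145) without b6j control replicate 4, which held the 159 CPM, and -0.52 (adjusted p = 0.0515) or -0.51 (adjusted p = 0.0561) without ob control replicate 2 or 6, and -0.43 (adjusted p = 0.0787) with library size alone.

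Not called before cadmium were 10 sterol enzymes. They are Mvk, Pmvk, Fdps, Fdft1, Lss, Msmo1, Nsdhl, Hsd17b7, Ebp and Sc5d, and their log2 differences ran from -0.5 to -0.13. Mvk, mevalonate kinase, and Sc5d, a sterol desaturase, had every ob control below every b6j control although neither was called (log2 differences -0.49 ± 0.23 and -0.37 ± 0.14). Both were called without replicate 5 of ob at 2 mg/kg (adjusted p = 0.00494 for Mvk and 0.00136 for Sc5d), as were Nsdhl (-0.29, adjusted p = 0.00936) and Ebp (-0.25, adjusted p = 0.0218). Fdps, which makes farnesyl pyrophosphate, was counted at 0.172 CPM per kb, far below the other members, and shares 26.7% of its exon bases with Gm43738 on the same strand.

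Promoters of members that were lower together are shown for the 2 whose window holds a searched motif and covers no annotated exon. Each run is the 250 bases before the RefSeq start on GRCm38.p6, read 5′ to 3′ on the strand of the gene, with motif matches in capitals. Hmgcs1 lies at chr13:119690101-119690350 on the plus strand and Mvd at chr8:122443423-122443672 on the minus strand.
Hmgcs1: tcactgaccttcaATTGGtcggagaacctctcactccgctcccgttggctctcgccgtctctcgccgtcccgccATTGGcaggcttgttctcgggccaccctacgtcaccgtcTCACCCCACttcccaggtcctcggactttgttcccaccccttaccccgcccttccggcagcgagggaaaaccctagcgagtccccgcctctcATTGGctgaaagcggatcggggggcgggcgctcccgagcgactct
Mvd: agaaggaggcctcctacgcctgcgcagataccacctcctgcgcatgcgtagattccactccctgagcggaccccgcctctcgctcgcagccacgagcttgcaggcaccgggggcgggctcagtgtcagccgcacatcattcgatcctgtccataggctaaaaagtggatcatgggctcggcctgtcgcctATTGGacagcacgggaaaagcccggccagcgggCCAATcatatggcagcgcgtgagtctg
The searched letters were TCACNCCAC, a core of the sterol response element, TCACGTGA, an E-box type site that SREBPs also bind, and CCAAT, the box of NF-Y, a factor that works beside SREBPs. Both strands were read, so CCAAT also appears as ATTGG, and no 2 matches printed here overlap. Hmgcs1 held 1 sterol response element core and 3 NF-Y boxes, and Mvd 2 NF-Y boxes. RefSeq windows were matched for 24 of the 30 members, some with several windows. An NF-Y box was in a window of 14 of 15 sterol enzymes (93.3%), 4 of 5 regulators and carriers (80.0%) and 1 of 4 fatty acid enzymes (25.0%), and of 37.5% of all genes with a window. The sterol response element core was found in 1 of the 24 members and in 1.22% of all genes, and the E-box type site in 0 of 24 and in 0.907%. A match is a description of letters, not a binding site.

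Under cadmium the genotype difference was called for part of the sterol enzymes at both doses. At 0.5 mg/kg 7 members were called lower in ob than in b6j kidneys and 0 higher, with 5.06% of all genes called lower and 4.58% higher. They were Mvd, Idi1, Cyp51, Tm7sf2 and Dhcr7 of the sterol enzymes, Srebf1, and Acly, the enzyme that supplies cytosolic acetyl-CoA. All 18 sterol enzymes had a log2 difference below 0, with a median of -0.28. The fatty acid enzymes had the same median at this dose, -0.28, with 5 of 6 below 0. Mvd differed by -0.47 ± 0.12 (adjusted p = 0.00643), Tm7sf2 by -0.38 ± 0.09 (adjusted p = 0.00538) and Dhcr7 by -0.57 ± 0.12 (adjusted p = 0.000973). Acly had 140, 165 and 179 CPM in ob and 164, 192 and 235 CPM in b6j at this dose. The ranges overlapped (log2 difference -0.26 ± 0.08, adjusted p = 0.0398), and the call was lost without replicate 1, 3, 4 or 5 of ob or replicate 3, 4 or 5 of b6j (-0.27 to -0.2, adjusted p 0.054 to 0.142), and with library size alone (-0.22, adjusted p = 0.0847). Leaving out replicate 5 of ob at 2 mg/kg, 11 members were called lower and 1 higher, with 19.2% of all genes called. The added calls were Hmgcs1, Mvk, Lss and Scap on the lower side and Elovl6 on the higher.

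At 2 mg/kg 13 members were called lower in ob than in b6j kidneys and 0 higher, with 8.53% of all genes called lower and 7.9% higher. The sterol enzymes among them were Hmgcs1, Mvk, Mvd, Idi1, Cyp51, Tm7sf2, Ebp and Sc5d, and the median of all 18 was -0.33. Mvk had 2.09, 12.8 and 16.3 CPM in ob and 16.1, 19.7 and 26.3 CPM in b6j. Its lowest value was that of the library that stood apart, and the ranges just touched (log2 difference -0.82 ± 0.23, adjusted p = 0.0133, and -0.59 without that library, adjusted p = 0.00295). Hmgcs1 had 116, 249 and 336 CPM in ob and 310, 323 and 395 CPM in b6j (-0.49 ± 0.13, adjusted p = 0.00848). Mvd had 28.4, 57 and 64.6 CPM in ob and 60.4, 71.2 and 89.6 CPM in b6j (-0.48 ± 0.12, adjusted p = 0.00405). In both genes 4 or 5 of 6 ob libraries lay below every b6j library.

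A further 3 calls of sterol enzymes at 2 mg/kg hung on single libraries. Tm7sf2 (-0.31 ± 0.09, adjusted p = 0.0214) had 11.6, 13 and 15.3 CPM in ob and 14.8, 16.5 and 17.6 CPM in b6j. It was -0.27 without ob replicate 1 (adjusted p = 0.0531) or b6j replicate 6 (adjusted p = 0.0623). Ebp, the sterol isomerase (-0.35 ± 0.11, adjusted p = 0.0242), had 35.4, 59.2 and 69 CPM in ob and 64.2, 71.7 and 89.7 CPM in b6j, and was -0.24 without ob replicate 5 (adjusted p = 0.0616) and -0.27 without b6j replicate 6 (adjusted p = 0.0958). These ranges overlapped in part. Sc5d (-0.43 ± 0.14, adjusted p = 0.0322) had 18.4, 44.6 and 53.3 CPM in ob and 46.6, 55 and 75.8 CPM in b6j. Its call was lost without ob replicate 6 or b6j replicate 1, 3, 5 or 6 (-0.43 to -0.31, adjusted p 0.0508 to 0.133), and it was -0.27 without ob replicate 5 (adjusted p = 0.045). In limma-voom with sample weights neither Ebp (-0.21, adjusted p = 0.0702) nor Sc5d (-0.23, adjusted p = 0.0826) was called. For the whole comparison 12 members were called lower without ob replicate 5, with 15.2% of all genes called, and 8 without b6j replicate 6. A fit to the 2 groups alone, which rested on fewer libraries, called 2 members, Cyp51 and Srebf1. In it Idi1 differed by -1.36 (adjusted p = 0.0586).

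**Figure D2:**
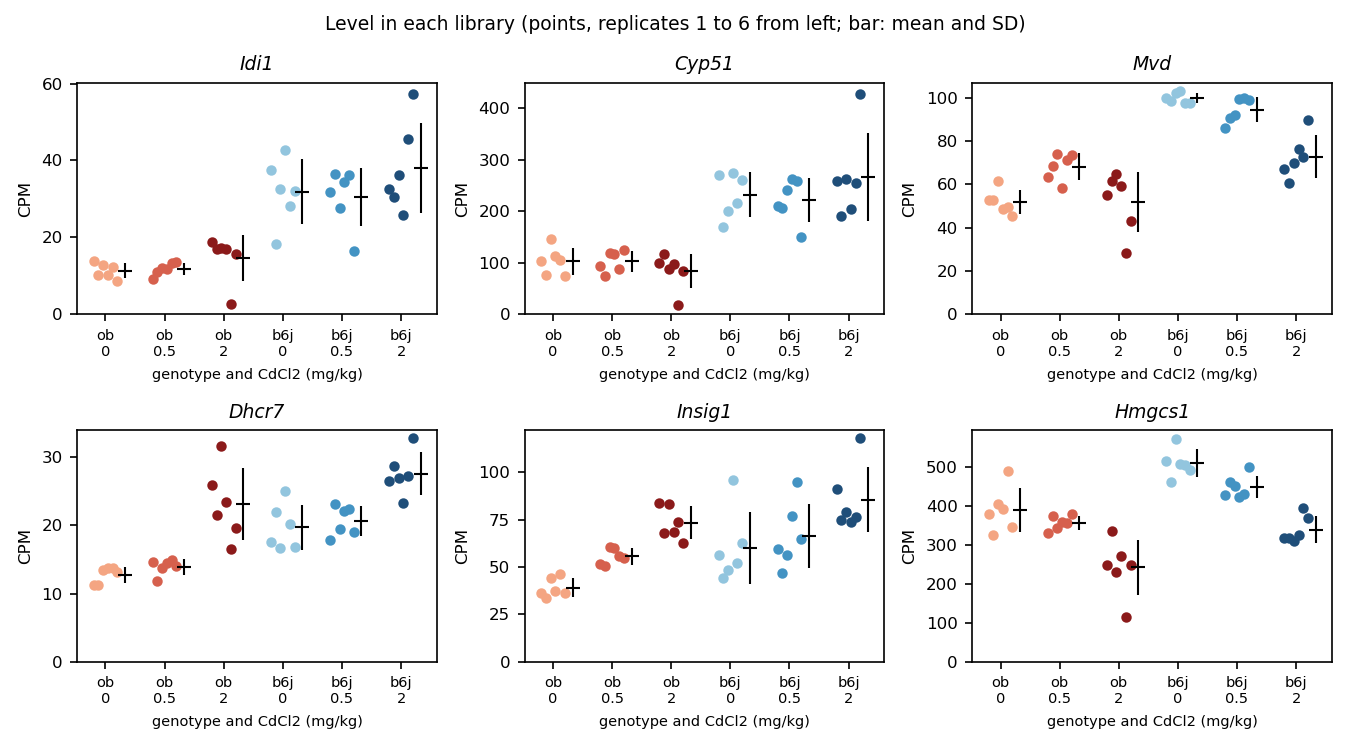
The level in CPM (vertical axis) of Idi1, Cyp51, Mvd, Dhcr7, Insig1 and Hmgcs1 in each library, by genotype and dose (horizontal axis), with bars for the mean and SD of 6. Idi1 and Cyp51 are separated by genotype at every dose, Dhcr7 and Insig1 are higher at 2 mg/kg than without cadmium in ob kidneys, and Hmgcs1 is lower at 2 mg/kg in both genotypes. In ob at 2 mg/kg replicate 5 is the lowest point of Idi1 (2.68 CPM) and of Cyp51 (19.2 CPM).

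Among the regulators, Scap, the escort of SREBPs, had 63, 66.2 and 71.1 CPM in ob controls and 86, 91.1 and 98.4 CPM in b6j controls. The groups did not overlap (log2 difference -0.46 ± 0.08, adjusted p = 0.000179). Over 13.2% of its exon bases an opposite-strand gene is annotated. Insig1, the retention protein that is itself a target of SREBPs, had 33.7, 37 and 46.4 CPM in ob controls and 44.1, 54.4 and 96.2 CPM in b6j controls. Of the 6 ob libraries 4 lay below every b6j library (-0.62 ± 0.15, adjusted p = 0.00398). Srebf2 had 87.4, 93.9 and 103 CPM in ob controls and 102, 107 and 134 CPM in b6j controls (-0.26 ± 0.08, adjusted p = 0.0163). That call was lost without b6j control replicate 4 (-0.2, adjusted p = 0.0635) and with library size alone (-0.13, adjusted p = 0.254). At 0.5 and 2 mg/kg Scap, Insig1 and Srebf2 were not called between genotypes, with log2 differences of -0.24, -0.26 and -0.18 at 0.5 mg/kg and of -0.12, -0.22 and -0.1 at 2 mg/kg. Scap was called at both doses once replicate 5 of ob at 2 mg/kg was left out (-0.25, adjusted p = 0.00448, at 0.5 mg/kg and -0.22, adjusted p = 0.0205, at 2 mg/kg).

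Srebf1 was called between genotypes at both doses of cadmium and not before it. It had 54.4, 59.2 and 62.1 CPM in ob controls and 56.2, 61.8 and 76.8 CPM in the untreated b6j kidneys (log2 difference -0.13 ± 0.09, adjusted p = 0.343). At 0.5 mg/kg it had 49.9, 55.5 and 59.5 CPM in ob and 62.8, 65.9 and 84.6 CPM in b6j (-0.34 ± 0.09, adjusted p = 0.00963). At the high dose it had 47.3, 60.4 and 66.6 CPM in ob and 69.3, 85 and 98.1 CPM in b6j (-0.55 ± 0.09, adjusted p = 3.06e-05). At both doses every ob library lay below every b6j library. Counts are per gene and do not separate the SREBP-1a and SREBP-1c transcripts. Insig2, the second retention protein, and Stard4, a carrier of cholesterol through the cytosol, were not called between genotypes in any group, with log2 differences of -0.4 to 0.06.

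The fatty acid enzymes did not share the sterol pattern before cadmium. Their median log2 difference between ob and b6j controls was 0.00, with 3 of 6 below 0, and with library size alone it was 0.13 with 1 of 6 below 0. Elovl6, which lengthens palmitate, was called higher in ob, with 23.9, 31.8 and 37.2 CPM in ob controls and 16.4, 20.1 and 24.2 CPM in b6j controls. Of the 6 ob libraries 5 lay above every b6j library (0.65 ± 0.14, adjusted p = 0.000727). The other 5 were not called. Fasn, the fatty acid synthase, had 65.3, 91 and 154 CPM in ob controls and 115, 127 and 172 CPM in b6j controls. Those ranges overlapped (-0.4 ± 0.33, adjusted p = 0.465).

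At 2 mg/kg 4 of the 6 fatty acid enzymes were called lower in ob than in b6j kidneys, and their median log2 difference was -0.6. Scd2, a stearoyl-CoA desaturase, had 48.2, 88.1 and 93.9 CPM in ob and 94.7, 113 and 152 CPM in b6j. It was the only fatty acid enzyme with no overlap at this dose (-0.52 ± 0.13, adjusted p = 0.005). Scd1, the other desaturase, had 35.2, 222 and 351 CPM in ob and 256, 457 and 890 CPM in b6j (-1.27 ± 0.37, adjusted p = 0.0151, and -1.02 with adjusted p = 0.0544 without b6j replicate 2). Fasn had 57.3, 114 and 161 CPM in ob and 111, 209 and 435 CPM in b6j (-1.04 ± 0.33, adjusted p = 0.027). Its call was lost without ob replicate 5 or without b6j replicate 2, 3 or 6 (-0.97 to -0.78, adjusted p 0.0588 to 0.102). Acaca, acetyl-CoA carboxylase, had 21.7, 36.1 and 46.3 CPM in ob and 34.3, 51 and 82.5 CPM in b6j (-0.67 ± 0.19, adjusted p = 0.0144), and was -0.53 without b6j replicate 2 (adjusted p = 0.0561) and -0.52 without b6j replicate 6 (adjusted p = 0.0702). In limma-voom with sample weights Fasn was at -0.64 (adjusted p = 0.182) and Acaca at -0.44 (adjusted p = 0.099). All 3 overlapped between genotypes. Acly and Elovl6 were not called at this dose.

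Adipocyte transcripts moved with some of these values. Adipoq and Plin1, which define fat cells, summed to a median of 7.236 CPM (0.1308 to 9.657) in ob and 6.036 CPM (0 to 30.44) in b6j at 2 mg/kg, and to 5.037 CPM (0 to 12.8) in ob controls and 0.9002 CPM (0.4972 to 7.584) in b6j controls. The wider list of 10 adipocyte genes had all 10 above the worth of 3 counts by group median in every group but b6j controls, where it was 9, Lep being at or below it. Its sum, 2129 to 3078 CPM in ob and 1260 to 2043 CPM in b6j at 2 mg/kg, is mostly Pck1, which the proximal tubule also makes. Without Pck1 the other 9 genes summed to a median of 86.3 CPM (50.94 to 149.0) in ob controls. In b6j controls that median was 71.41 CPM (56.71 to 125.4), and at 2 mg/kg it was 99.59 CPM in ob and 111.8 CPM in b6j. In b6j at 2 mg/kg Fasn was at 435, 287 and 364 CPM in replicates 2, 3 and 6, the libraries of that group with the most Adipoq and Plin1, and at 121, 111 and 131 CPM in the other 3. With log2 of the Adipoq and Plin1 sum as a term in the fit, chosen after seeing the data, the genotype difference of Fasn was -0.9 at 2 mg/kg (adjusted p = 0.00303) and -0.85 in controls (adjusted p = 0.00606), and that of Elovl6 in controls was 0.55 (adjusted p = 0.00305).

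**Figure D3:**
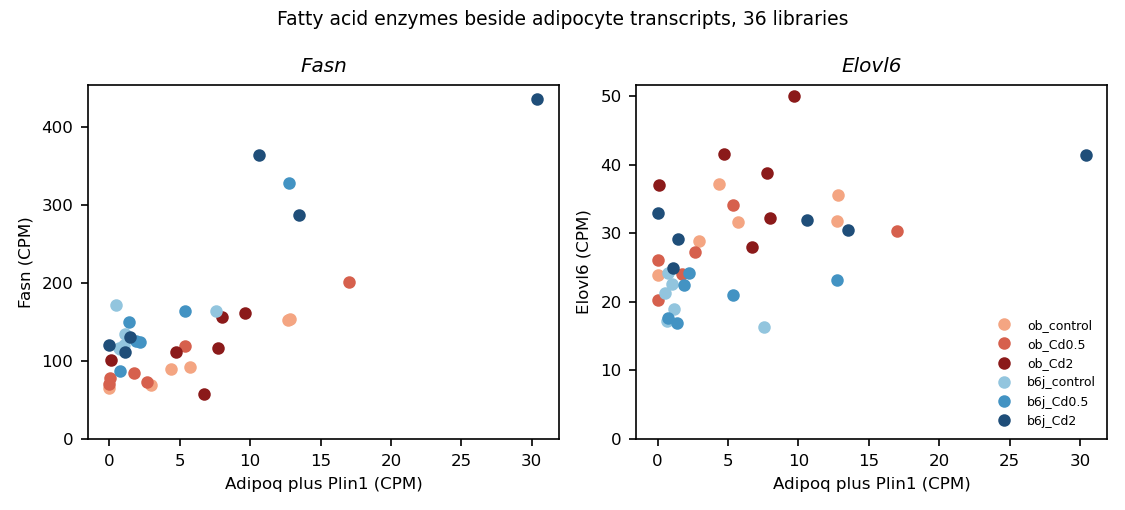
The level in CPM of Fasn (left) and Elovl6 (right) in each of 36 libraries (vertical axes) against the summed CPM of Adipoq and Plin1 (horizontal axes), coloured by group. The highest Fasn, 435 CPM, is in the library with the highest sum, 30.44 CPM. Elovl6 in ob controls, at 23.9 to 37.2 CPM, lies mostly above b6j controls, but the sums of these groups are seldom alike. Among b6j controls only replicate 6, with a sum of 7.584 CPM, passes 1.136 CPM. Among ob controls only replicate 5 has a sum below 2.957 CPM.

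Low-dose cadmium moved few members within a genotype. In b6j kidneys at 0.5 mg/kg 0 of 30 members were called by the quasi-likelihood test of edgeR, and 0 had an unadjusted p under 0.05, while 0.325% of all genes were called and 5.81% had such a p. DESeq2 and limma-voom also called 0. Without replicate 5 of ob at 2 mg/kg the count of members was also 0, with 0.854% of all genes called. In ob kidneys at 0.5 mg/kg 2 members were called higher, Mvd and Insig1, and 0 lower, with 3.55% of all genes called higher and 0.737% lower. Insig1 had 50.4, 55.5 and 60.8 CPM in ob at 0.5 mg/kg and 33.7, 37 and 46.4 CPM in ob controls. Every treated library lay above every control (0.51 ± 0.15, adjusted p = 0.0482). Mvd had 58.2, 69.8 and 73.8 CPM at 0.5 mg/kg and 45.5, 51.2 and 61.4 CPM in controls, with 5 of 6 treated libraries above every control (0.4 ± 0.12, adjusted p = 0.045).

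Neither low-dose call was firm. Mvd lost its call without any 1 of ob control replicates 1, 2, 4, 5 and 6 or of replicates 1, 2, 3, 5 and 6 at 0.5 mg/kg (0.36 to 0.42, adjusted p 0.054 to 0.113). Insig1 lost it without any 1 of ob control replicates 1, 2, 3, 4 and 6 or of the 6 replicates at 0.5 mg/kg (0.46 to 0.53, adjusted p 0.0563 to 0.122). With library size alone Mvd was at 0.3 (adjusted p = 0.108) and Insig1 at 0.41 (adjusted p = 0.106). All genes then had a median log2 change of -0.11, and the medians of the sterol enzymes and of the regulators and carriers were -0.04 each, against 0.06 each under the scaling used elsewhere. Without replicate 5 of ob at 2 mg/kg, 3 members were called higher and 1 lower, with 9.68% of all genes called. The 3 higher were Mvd, Insig1 (adjusted p = 0.0289) and Scap (0.2, adjusted p = 0.0455), and the lower was Stard4 (-0.37, adjusted p = 0.00795).

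Within ob kidneys at 2 mg/kg 12 of 30 members were called, a share near that of all genes, of which 6976 of 18180 were called. Of the sterol enzymes 6 rose and 2 fell, 3 regulators rose and 1 carrier fell, and 0 of 6 fatty acid enzymes were called. The 9 higher and 3 lower members stand beside 20.4% of all genes called higher and 18% called lower. The median log2 change was 0.01 for the sterol enzymes, 0.13 for regulators and carriers, -0.01 for the fatty acid enzymes and 0.01 for all genes. Without replicate 5, 10 members were called higher and 3 lower, with 38.0% of all genes called, and Elovl6 was among the higher (0.35, adjusted p = 0.0337). Marker sums of several cell types differed beside these values. Proximal tubule markers summed to 2091 to 20980 CPM in ob at 2 mg/kg and 24560 to 33780 CPM in ob controls, and to 22550 to 33310 CPM in b6j at 2 mg/kg and 42110 to 54190 CPM in b6j controls. Injury markers summed to 114.3 to 2477 CPM in ob at 2 mg/kg and 16.73 to 22.36 CPM in ob controls, and to 149.6 to 285.0 CPM in b6j at 2 mg/kg and 13.93 to 197.4 CPM in b6j controls. Macrophage and T cell markers, 7 genes, summed to 168.0 to 323.6 CPM in ob at 2 mg/kg without replicate 5, which was at 82.1 CPM, and to 98.1 to 120.5 CPM in ob controls. Markers of thick ascending limb and distal tubule, 4 genes, summed to 3666 to 4307 CPM without replicate 5, which was at 1149 CPM, and to 5095 to 5913 CPM in ob controls. The part of these markers in the changes at this dose was not tested.

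The 6 sterol enzymes that rose were Dhcr7, Msmo1, Sqle, Fdft1, Hsd17b7 and Fdps. Dhcr7 had 16.6, 22.6 and 31.7 CPM in ob at 2 mg/kg and 11.2, 13.2 and 13.8 CPM in ob controls. No treated library overlapped the controls (0.87 ± 0.12, adjusted p = 3.42e-07). Msmo1, which starts removal of the C4 methyl groups, had 30.5, 34 and 44.9 CPM at 2 mg/kg and 16.3, 22.9 and 31.2 CPM in controls, with 4 treated libraries above every control (0.69 ± 0.19, adjusted p = 0.00398). Sqle had 49.9, 90.6 and 133 CPM at 2 mg/kg and 53.8, 64.2 and 75.9 CPM in controls. Replicate 5 was below every control and the other 5 treated libraries were above every control (0.59 ± 0.17, adjusted p = 0.00637). Fdft1, squalene synthase, had 32.5, 39.3 and 48.5 CPM at 2 mg/kg and 24.3, 30.2 and 33.2 CPM in controls (0.43 ± 0.15, adjusted p = 0.0192). Its value was 0.38 without ob control replicate 1 (adjusted p = 0.0503) and 0.37 without replicate 3 at 2 mg/kg (adjusted p = 0.0562), and 18.3% of its exon bases lie opposite Ctsb. Hsd17b7, a 3-ketosteroid reductase of the path, had 15.9, 22.3 and 29.3 CPM at 2 mg/kg and 14.8, 18.3 and 20.5 CPM in controls (0.37 ± 0.13, adjusted p = 0.0233). That call was lost without ob control replicate 6 or without replicate 1 or 5 at 2 mg/kg (0.29 to 0.34, adjusted p 0.0513 to 0.0845), and in limma-voom with sample weights (0.28, adjusted p = 0.0832). Fdps was at 0.686, 0.916 and 1.53 CPM at 2 mg/kg and 0.266, 0.4 and 0.798 CPM in controls, few counts in all, and the groups overlapped (1.03 ± 0.29, adjusted p = 0.00496).

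Hmgcs1 fell instead. It had 116, 249 and 336 CPM in ob at 2 mg/kg and 326, 387 and 491 CPM in ob controls, with 5 of 6 treated libraries below every control (-0.69 ± 0.13, adjusted p = 7.07e-05, and -0.54 without replicate 5, adjusted p = 2.62e-06). Ebp had 35.4, 59.2 and 69 CPM at 2 mg/kg and 73.5, 76.9 and 91.2 CPM in controls. Here the groups did not overlap (-0.49 ± 0.11, adjusted p = 0.000584). Idi1 and Cyp51, the members that separate the genotypes most, were not called (0.38 ± 0.26 and -0.29 ± 0.24), though Idi1 was at 0.6 (adjusted p = 0.0103) without replicate 5.

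Of the regulators, Insig1 had 62.8, 71.2 and 83.9 CPM in ob at 2 mg/kg and 33.7, 37 and 46.4 CPM in ob controls. All treated libraries lay above all controls (0.91 ± 0.15, adjusted p = 1.35e-05). Scap had 65.5, 84.5 and 124 CPM at 2 mg/kg and 63, 66.2 and 71.1 CPM in controls (0.44 ± 0.08, adjusted p = 9.19e-05). Srebf2 had 99.7, 111 and 133 CPM at 2 mg/kg and 87.4, 93.9 and 103 CPM in controls (0.29 ± 0.08, adjusted p = 0.00255). For both, 5 of 6 treated libraries were above every control. Stard4 fell to 23.1, 59.1 and 68.1 CPM at 2 mg/kg, against 82.4, 84.6 and 98.1 CPM in controls, with no overlap (-0.69 ± 0.15, adjusted p = 0.000307).

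In b6j kidneys at 2 mg/kg 6 members rose and 5 fell, beside 12.3% of all genes called higher and 11.4% lower. Of the 6 sterol enzymes called 5 were lower, while the 3 fatty acid enzymes called were all higher. Median log2 changes were 0.11 for sterol enzymes, 0.12 for regulators and carriers, 0.66 for fatty acid enzymes and 0.02 for all genes, and with library size alone 0.21, 0.22, 0.76 and 0.12. Leaving out replicate 5 of ob at 2 mg/kg, 9 members were called higher and 7 lower, with 34.8% of all genes called.

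Hmgcs1 had 310, 323 and 395 CPM in b6j at 2 mg/kg and 463, 508 and 573 CPM in b6j controls. Mvd had 60.4, 71.2 and 89.6 CPM at 2 mg/kg and 97.5, 99.3 and 103 CPM in controls. Neither overlapped its controls (-0.59 ± 0.13, adjusted p = 0.000839, for Hmgcs1 and -0.46 ± 0.12, adjusted p = 0.00359, for Mvd). Ebp had 64.2, 71.7 and 89.7 CPM at 2 mg/kg and 84.9, 96.4 and 102 CPM in controls, with 5 treated libraries below every control (-0.38 ± 0.11, adjusted p = 0.00891). Acat2 had 55.6, 65.4 and 89.8 CPM at 2 mg/kg and 70.6, 84.6 and 87.5 CPM in controls, and those ranges overlapped (-0.29 ± 0.1, adjusted p = 0.0338). Tm7sf2 had 14.8, 16.5 and 17.6 CPM at 2 mg/kg and 17.8, 20 and 20.4 CPM in controls, without overlap (-0.26 ± 0.09, adjusted p = 0.0393). The calls of Acat2 and Tm7sf2 were weak. Acat2 lost its call without any 1 of b6j control replicates 2, 3, 4, 5 and 6 or replicates 1, 2 and 3 at 2 mg/kg (-0.29 to -0.25, adjusted p 0.0504 to 0.0875). Tm7sf2 lost it without any 1 of b6j control replicates 1, 3, 4, 5 and 6 or replicates 1, 3 and 4 at 2 mg/kg (-0.27 to -0.24, adjusted p 0.0512 to 0.0745), and with library size alone it was -0.16 (adjusted p = 0.203) and Acat2 -0.19 (adjusted p = 0.127).

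Dhcr7 rose in b6j as in ob, to 23.3, 27.1 and 32.9 CPM at 2 mg/kg, against 16.7, 18.9 and 25 CPM in controls, with 5 treated libraries above every control (0.49 ± 0.11, adjusted p = 0.00173). Insig1 had 73.6, 77.7 and 118 CPM at 2 mg/kg and 44.1, 54.4 and 96.2 CPM in controls, and overlapped because of b6j control replicate 4 (0.51 ± 0.15, adjusted p = 0.0115, and 0.39 with adjusted p = 0.0531 without replicate 6 at 2 mg/kg). Srebf1 had 69.3, 85 and 98.1 CPM at 2 mg/kg and 56.2, 61.8 and 76.8 CPM in controls, with 5 of 6 treated libraries above every control (0.39 ± 0.09, adjusted p = 0.000901). Elovl6 had 24.9, 31.2 and 41.4 CPM at 2 mg/kg and 16.4, 20.1 and 24.2 CPM in controls. Every treated library was above every control (0.66 ± 0.14, adjusted p = 0.000371). Scd1 had 256, 457 and 890 CPM at 2 mg/kg and 179, 226 and 300 CPM in controls, and 1 treated library lay within the control range (1.11 ± 0.36, adjusted p = 0.0236). Acaca had 34.3, 51 and 82.5 CPM at 2 mg/kg and 30.9, 35.6 and 42.3 CPM in controls, with 4 treated libraries above every control (0.66 ± 0.19, adjusted p = 0.0113).

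The Scd1 and Acaca calls rested on few libraries. Both were lost without replicate 2 at 2 mg/kg, and only that of Acaca without replicate 6. In those libraries Adipoq and Plin1 were at 30.44 and 10.61 CPM in sum. Neither call was lost without replicate 3 at 2 mg/kg, where that sum was 13.51 CPM. In b6j control replicates 2 and 3 the sum was 0.7721 and 1.028 CPM. Scd1 was 0.87 without replicate 2 at 2 mg/kg (adjusted p = 0.0939), 1.04 without b6j control replicate 2 (adjusted p = 0.0524) and 1.06 without b6j control replicate 3 (adjusted p = 0.05). Acaca was 0.52 without replicate 2 at 2 mg/kg (adjusted p = 0.0539) and 0.51 without replicate 6 (adjusted p = 0.0523). With the Adipoq and Plin1 term the values were 0.75 for Scd1 (adjusted p = 0.0761), 0.4 for Acaca (adjusted p = 0.0486) and 0.57 for Elovl6 (adjusted p = 0.00139), and the median of the 6 fatty acid enzymes was 0.34. Fasn was not called with or without that term (0.82 ± 0.33, adjusted p = 0.0682, and 0.26, adjusted p = 0.43). Without replicate 5 of ob at 2 mg/kg and without the term, Fasn (0.81, adjusted p = 0.0398) and Scd2 (0.32, adjusted p = 0.0147) were called too, which made 5 of the 6 fatty acid enzymes. Scd2 was at 0.33 ± 0.13 (adjusted p = 0.0596) and Acly at -0.02 ± 0.08.

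**Figure D4:**
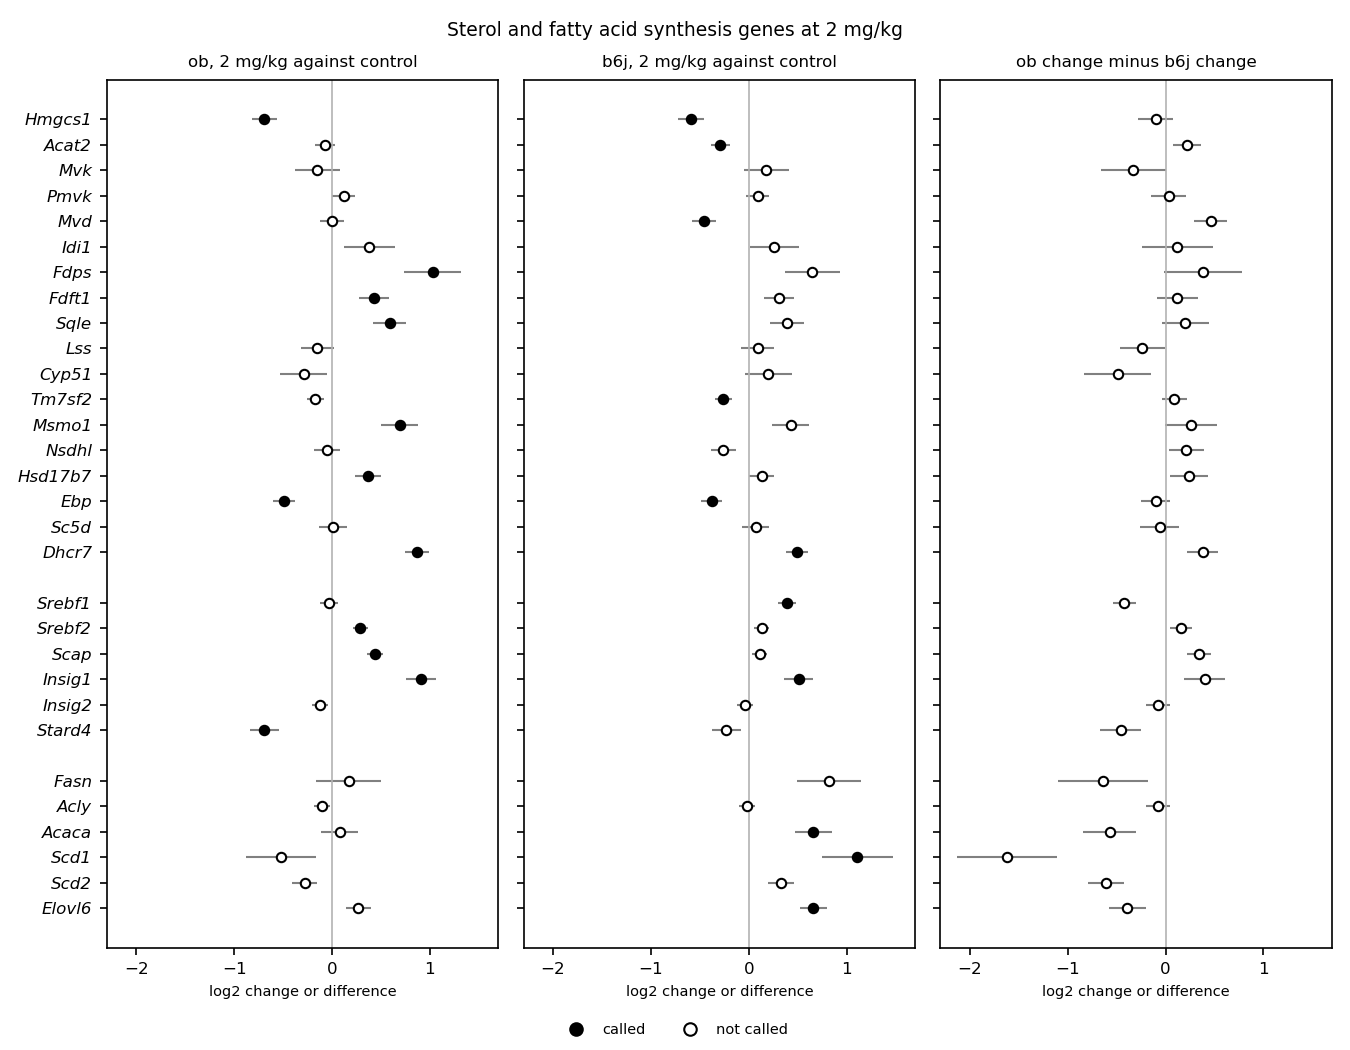
The log2 change of each member at 2 mg/kg in ob and in b6j kidneys, and the difference of the changes (horizontal axes, bars are SE, filled points were called), with members from top to bottom as in the plot of genotype differences. Hmgcs1 and Ebp lie left and Dhcr7 and Insig1 right of 0 in both genotypes. The 6 fatty acid enzymes all lie left of 0 in the right panel, where 0 members were called.

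Whether the genotypes answered cadmium differently was tested as the change in ob minus the change in b6j. At 0.5 mg/kg 0 of 30 members were called by edgeR, 1 had an unadjusted p under 0.05 (Mvd), DESeq2 called 0 and limma-voom 1, while 0.385% of all genes were called. The count was 1 without replicate 5 of ob at 2 mg/kg, Mvd at 0.47 (adjusted p = 0.0238), with 1.38% of all genes called. For the high dose 0 of 30 were called by edgeR, 9 had an unadjusted p under 0.05, DESeq2 called 2 and limma-voom 4, and 2.07% of all genes were called. Of all genes 8.0% at 0.5 mg/kg and 17.0% at 2 mg/kg had an unadjusted p under 0.05. So the different sets called within each genotype are not shown to differ between them by the edgeR test.

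Of the 9 members with such a p at 2 mg/kg, the 5 with the smallest adjusted p were these. Scd1 differed by -1.62 ± 0.51 (adjusted p = 0.0864), Scd2 by -0.61 ± 0.18 (adjusted p = 0.0689), Srebf1 by -0.42 ± 0.12 (adjusted p = 0.0675), Scap by 0.34 ± 0.12 (adjusted p = 0.131) and Mvd by 0.46 ± 0.17 (adjusted p = 0.133). Without replicate 5 of ob at 2 mg/kg Mvd was called at 0.6 (adjusted p = 0.00188) and Srebf1 at -0.45 (adjusted p = 0.0231), with 4.12% of all genes called. Without replicate 6 of ob at 2 mg/kg Scap at 0.42 (adjusted p = 0.0171), Scd1 at -1.82 (adjusted p = 0.0397) and Scd2 at -0.65 (adjusted p = 0.0431) were called instead. Srebf1 was also called without b6j control replicate 4 (adjusted p = 0.0356) or b6j replicate 3 at 2 mg/kg (adjusted p = 0.044). No sign among the values called in these fits differed from that in the fit to all libraries.

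Set side by side, sterol and fatty acid enzymes differed in how their libraries arranged. A level was taken for each class and library as the mean over its genes of log2(CPM + 0.5), each gene centred on its mean over 36 libraries. For sterol enzymes it was -0.4 to -0.11 in ob controls, -0.25 to -0.06 in ob at 0.5 mg/kg and -0.87 to 0.04 in ob at 2 mg/kg, and 0.05 to 0.57, 0.05 to 0.4 and 0.07 to 0.62 at the same doses in b6j. No ob library reached the lowest b6j library, at any dose. The margin was narrow, 0.04 in the highest ob library against 0.05 in the lowest b6j library. These levels rest on the scaling used elsewhere, whose factors ran from 0.892 to 1.12. They were not computed with library size alone, so full separation is shown only under that scaling. For fatty acid enzymes the level was -0.36 to 0.28 in ob controls, -0.47 to 0.28 in ob at 0.5 mg/kg and -0.95 to 0.31 in ob at 2 mg/kg. At the same doses in b6j it was -0.2 to 0.02, -0.56 to 0.54 and -0.04 to 0.91. Here ob and b6j libraries overlapped at every dose. The sterol level minus the fatty acid level had a median of -0.22 in ob controls and 0.26 in b6j controls, 0.12 in ob and 0.21 in b6j at 0.5 mg/kg, and -0.06 in ob and -0.07 in b6j at 2 mg/kg. No test was made of these class levels, since the members were chosen with earlier results known.

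**Figure D5:**
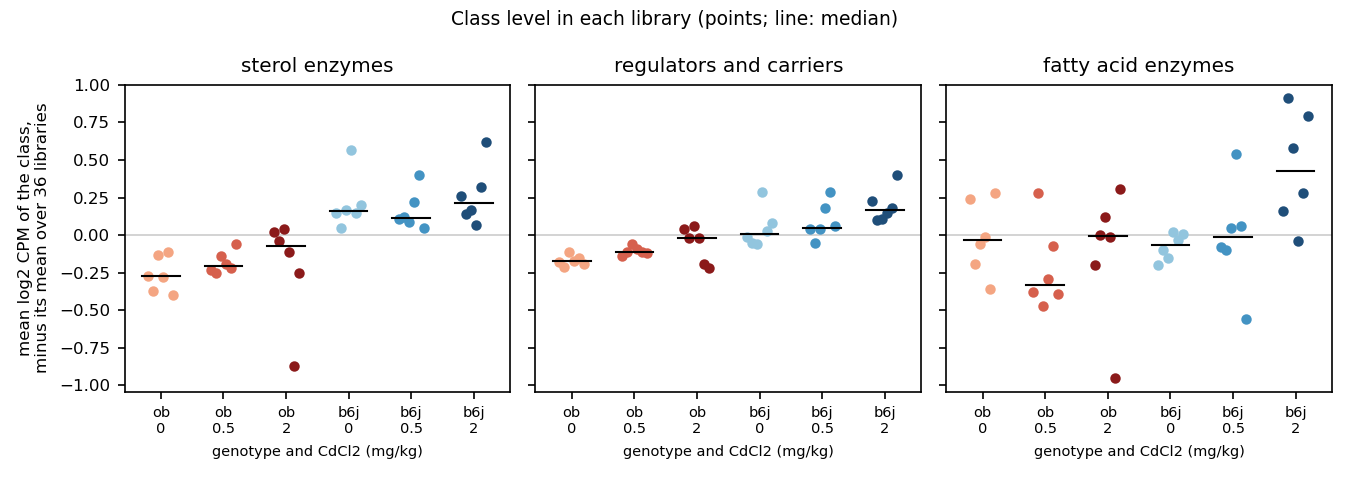
The class level in each library (vertical axis, mean log2 CPM minus its mean over 36 libraries, line at the median of 6) by genotype and dose for sterol enzymes, regulators and carriers, and fatty acid enzymes. Sterol enzymes in the ob libraries, at most 0.04, lie below those in the b6j libraries, at least 0.05, and the fatty acid enzymes of the genotypes overlap, with the highest value, 0.91, in b6j at 2 mg/kg.

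Further targets of SREBPs were counted beside the members. The list taken as the sterol side also held Fads1 and Fads2, which are fatty acid desaturases, so its counts are not of sterol genes only. Of 9 further genes on the sterol side 4 were called lower and 0 higher in ob than in b6j controls, 2 lower and 0 higher at 0.5 mg/kg, and 4 lower and 0 higher at 2 mg/kg. Over all genes the shares called lower were 8.93%, 5.06% and 8.53%, and those called higher 6.6%, 4.58% and 7.9%. Leaving out replicate 5 of ob at 2 mg/kg gave 6, 5 and 4 of the 9 lower and 0 higher, with 26.0%, 19.2% and 15.2% of all genes called either way. Aacs, which turns the ketone body acetoacetate into acetyl units for synthesis, had 69.4, 93 and 134 CPM in ob controls and 245, 328 and 444 CPM in b6j controls. The groups were far apart (log2 difference -1.8 ± 0.23, adjusted p = 3.88e-07), as they were at 0.5 mg/kg (-2.04 ± 0.23) and 2 mg/kg (-2.3 ± 0.23, adjusted p = 1.01e-08). Fads1, a fatty acid desaturase, differed by -0.57 ± 0.1 in controls, -0.78 ± 0.1 at 0.5 mg/kg and -0.97 ± 0.1 at 2 mg/kg (adjusted p = 6.05e-05, 6.93e-07 and 1.05e-08). Aacs, like Idi1 and Cyp51, was therefore on the low side in ob before cadmium, and so was Fads1, a gene of fatty acids.

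With cadmium, Tmem97 rose in both genotypes at 2 mg/kg, as Dhcr7 and Insig1 did. Tmem97, a membrane protein tied to cholesterol transport, had 34.3, 37 and 41.1 CPM in ob at 2 mg/kg and 20.6, 22.7 and 24.4 CPM in ob controls (0.72 ± 0.07, adjusted p = 1.04e-09). In b6j it rose by 0.62 ± 0.07 (adjusted p = 4.5e-08). It had also risen in ob at 0.5 mg/kg, by 0.44 ± 0.07 (adjusted p = 6.54e-05). Over the 9 genes 3 rose and 3 fell in ob at 2 mg/kg, and 2 rose and 1 fell in b6j, beside 20.4% and 18% of all genes in ob and 12.3% and 11.4% in b6j. Leaving out replicate 5 of ob at 2 mg/kg gave 3 up and 2 down in ob, and 3 up and 4 down in b6j. Of all genes 38.0% in ob and 34.8% in b6j were then called either way.

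On the fatty acid side 14 further genes were fixed. Me1, the malic enzyme that supplies NADPH, had 306, 337 and 409 CPM in ob controls and 623, 663 and 717 CPM in b6j controls. It was lower in all 6 ob controls (-0.96 ± 0.09, adjusted p = 3.11e-10), and it rose in ob at 0.5 mg/kg (0.48 ± 0.09, adjusted p = 0.000252). It was the only one of the 14 whose response was called as different between genotypes at 0.5 mg/kg (0.52 ± 0.12, adjusted p = 0.0368). Of all genes 0.385% were called in that comparison. Acss2, acetyl-CoA synthetase, had 44.6, 118 and 167 CPM in ob at 2 mg/kg and 267, 287 and 336 CPM in ob controls (-1.28 ± 0.16, adjusted p = 7.8e-08). In b6j it had 198, 243 and 261 CPM at 2 mg/kg and 319, 335 and 381 CPM in controls (-0.54 ± 0.16, adjusted p = 0.0105). Of the 14, 4 rose and 2 fell in ob at 2 mg/kg (4 and 3 without replicate 5), and 0 rose and 4 fell in b6j (1 and 4 without that library). Beside them 20.4% of all genes rose and 18% fell in ob, and 12.3% rose and 11.4% fell in b6j. Once that library was left out, 38.0% in ob and 34.8% in b6j were called either way. In ob against b6j kidneys 3 of the 14 were called lower and 0 higher in controls, 2 lower and 0 higher at 0.5 mg/kg, and 2 lower and 1 higher at 2 mg/kg. Leaving out replicate 5 of ob at 2 mg/kg gave 7 lower in controls, 7 at 0.5 mg/kg and 4 at 2 mg/kg, with 0 higher at any dose. With every library 8.93%, 5.06% and 8.53% of all genes were called lower, and 6.6%, 4.58% and 7.9% higher. Without that library 26.0%, 19.2% and 15.2% were called either way.

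Of 8 genes of sterol sensing by LXR, the receptor of surplus sterols, and of efflux, Abca1, the cholesterol exporter, was called lower in its response at 2 mg/kg in ob than in b6j (-0.76 ± 0.2, adjusted p = 0.0383, and -0.65 with adjusted p = 0.0331 without replicate 5 of ob at 2 mg/kg). It was the only 1 of the 8 called there, beside 2.07% of all genes (4.12% without that library). Abca1 had 39.5, 61.6 and 74.9 CPM in ob at 2 mg/kg and 35.4, 43.7 and 59.7 CPM in ob controls (0.42 ± 0.14, adjusted p = 0.0175). In b6j it had 60.1, 69.2 and 88.2 CPM at 2 mg/kg and 22.9, 31.8 and 41.7 CPM in controls, without overlap (1.18 ± 0.14, adjusted p = 1.22e-07). In ob against b6j kidneys 1 of the 8 was called higher and 1 lower in controls, 0 higher and 1 lower at 0.5 mg/kg, and 1 higher and 3 lower at 2 mg/kg. Leaving out replicate 5 of ob at 2 mg/kg gave 1 higher and 2 lower in controls, 0 higher and 3 lower at 0.5 mg/kg, and 0 higher and 3 lower at 2 mg/kg. Shares over all genes were 6.6%, 4.58% and 7.9% higher and 8.93%, 5.06% and 8.53% lower with every library. Without that library 26.0%, 19.2% and 15.2% of all genes were called either way. At 2 mg/kg 2 rose and 1 fell in ob (2 and 2 without replicate 5), and 2 rose and 0 fell in b6j (3 and 1 without that library). The shares of all genes that rose and fell at this dose were 20.4% and 18% in ob, and 12.3% and 11.4% in b6j. Once that library was left out, 38.0% in ob and 34.8% in b6j were called either way.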

How the data were processed

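Kidney total RNA with an integrity number above 6.5 was sequenced from 36 libraries, per the labels' protocols. Demultiplexing with bcl2fastq, trimming with Trimmomatic, quality control with FastQC and alignment to GRCm38 with STAR are listed in the submitters' processing notes. The deposited values are raw read counts per gene, made with featureCounts 1.4.6-p2 on the Ensembl 96 annotation without regard to strand, per the file headers. A joined table with 36 columns of the same kind was not used. Symbols and positions came from GENCODE M21, in which all 55536 identifiers matched.

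CPM, log2 changes and p-values were computed here with R 4.3.3 and edgeR 4.0.16. The default expression filter left 18180 genes, libraries were scaled by trimmed means (factors 0.892 to 1.12), and 1 quasi-likelihood model with 6 group means was fitted to all 36 libraries (common dispersion 0.0489), with Benjamini-Hochberg adjustment over all genes in each of 9 comparisons. The SE is the size of the log2 change divided by the square root of its F statistic. All 30 members were followed, and values by library were given for those called in at least 1 of the 9 comparisons, plus a few near the threshold. Of the further pathway genes those named were called in at least 1 comparison, and were picked among the called after their values were seen. The members and lists were chosen with earlier results of these data known. Alternatives were DESeq2 1.42.0, limma 3.58.1 (voom), other scalings and filters, fits to the compared groups alone, a replicate block, a term for fat transcripts and leaving out libraries. The test was tried on simulated data first. Promoter sequences are from RefSeq on GRCm38.p6. Precision rests on 6 libraries per group, and 3 counts are worth at most 0.112 CPM. Results for some items are not reported here.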

Additional observations from a re-analysis of the deposited data

Results flagged for a closer look

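The level of each member in each group of 6 was checked for a single library far from the others, on log2(CPM + 0.5). Of 180 sets of 6 levels, 25 had a gap to the nearest other library, divided by the whole range, above Dixon's 95% critical value for 6 values, and chance gives about 1 in 20. The largest set came from replicate 5 of ob at 2 mg/kg, with 12 members. It was low for Hmgcs1 (116 CPM), Mvk (2.09 CPM, median of the other 5 libraries 13.5 CPM), Idi1 (2.68 and 17.0 CPM), Lss (8.01 and 24.2 CPM), Cyp51 (19.2 and 98.7 CPM) and Nsdhl (26.4 and 62.0 CPM). It was also low for Ebp (35.4 and 60.7 CPM), Sc5d (18.4 and 46.6 CPM), Insig2 (30.7 and 52.2 CPM), Stard4 (23.1 and 62.0 CPM), Scd1 (35.2 and 237 CPM) and Scd2 (48.2 and 88.7 CPM). In the same library proximal tubule markers were at 2091 CPM in sum and injury markers at 2477 CPM.

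Replicate 4 of the b6j controls was high for Fdft1 (55.7 CPM, others 28.4 CPM), Sqle (159 and 79.6 CPM), Lss (36.8 and 25.6 CPM) and Msmo1 (60.0 and 24.2 CPM). Its injury markers summed to 197.4 CPM, of which Havcr1 was 181 CPM. The remaining 9 were single genes. Acat2 was at 70.6 CPM in b6j control replicate 1 (others 86.5 CPM) and Insig2 at 55.8 CPM in b6j control replicate 6 (others 49.7 CPM). Mvk was at 9.08 CPM in ob control replicate 1 (others 13.3 CPM). In b6j at 0.5 mg/kg, replicate 6 had Idi1 at 16.5 CPM (others 34.3 CPM) and Hsd17b7 at 16.1 CPM (others 20.5 CPM). In ob at 0.5 mg/kg, Sqle was at 83.3 CPM in replicate 4 (others 70.0 CPM), Sc5d at 56.5 CPM in replicate 6 (others 46.2 CPM) and Dhcr7 at 11.8 CPM in replicate 2 (others 14.5 CPM). Sc5d was at 75.8 CPM in replicate 6 of b6j at 2 mg/kg (others 54.8 CPM).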

How the results depend on the processing

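None of the 57 calls of single members turned its direction under the alternatives run. Members that were not called did in places: in ob at 2 mg/kg Mvk was at -0.15 and Lss at -0.15, against 0.08 and 0.03 without replicate 5, and the class medians in ob at 0.5 mg/kg turned with library size alone as given above, as did the regulator and carrier medians of the difference between genotypes (0.02 and 0.04, against -0.07 and -0.06). Of the 57 calls 57 stood under DESeq2 and under a stricter filter (1 CPM in 6 libraries), 56 under another size factor, 55 with the replicate block, 52 under limma-voom with sample weights, 51 without a filter, 51 with the term for fat transcripts, 48 with library size alone and 45 in fits to the compared groups alone. Without replicate 5 of ob at 2 mg/kg 54 of the 57 calls stood.

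Members called in ob against b6j at 0.5 mg/kg numbered 7, and 15 under limma-voom, 13 in the compared groups alone, 12 without replicate 5 of ob and replicate 3 of b6j at 2 mg/kg, and 6 to 12 with 1 library left out. At 2 mg/kg they numbered 13, and 2 in the compared groups alone and 8 to 14 with 1 library left out. In ob at 0.5 mg/kg against ob controls they numbered 2, and 4 under limma-voom, 1 under another size factor, 0 with library size alone, without a filter or with the fat term, 5 in the compared groups alone, 4 without both of those libraries, and 0 to 4 with 1 library left out. In b6j at 2 mg/kg against b6j controls they numbered 11, with 17 under limma-voom and 8 to 16 with 1 library left out. The leave-one-out ranges were 9 to 16 for ob against b6j controls, 11 to 13 for ob at 2 mg/kg and 0 to 0 for b6j at 0.5 mg/kg. For the difference between genotypes at 0.5 mg/kg the count was 0, and 1 under limma-voom, in the compared groups alone and without both libraries (0 to 1 with 1 library left out). At 2 mg/kg it was 0, and 2 under DESeq2, 4 under limma-voom, 2 with library size alone and 3 without both libraries (0 to 3 with 1 library left out). The median sterol minus the median fatty acid change in b6j at 2 mg/kg was -0.55, and -0.18 with the fat term. The cause of these shifts was not tested. Calls over all genes moved with the setting too. For ob against b6j at 0.5 mg/kg they were 1753 of 18180, and 3486 of 18313 without both libraries. In ob at 0.5 mg/kg against ob controls they were 779, and 1753 without both. For the difference between genotypes at 2 mg/kg they were 376, and 755 without both. Most alternatives have no such share beside them here, so their counts do not show shifts particular to the members. Fits without some libraries, or of the compared groups only, also rested on fewer libraries.

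Replicate numbers do not pair the libraries: over 42 pairs of same-numbered libraries the correlation of deviations from group means ran from -0.229 to 0.236, and in 0 of 7 comparisons were all pairs over 0.1. With the replicate block 1 member was called in ob at 0.5 mg/kg in place of 2, and the calls lost were Hmgcs1 in ob against b6j controls (-0.38, adjusted p = 0.0596) and Mvd in ob at 0.5 mg/kg (0.4, adjusted p = 0.0555).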
